A study of Mus musculus with 24 samples.

Results

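Glycolysis and the response to low oxygen were followed through 40 genes in neural stem cells (NSCs) of the embryonic mouse cortex. The members were listed by symbol, by a rule that used no measured value but was written with earlier results of these data known, and all 40 were present among the 14922 genes of the deposited table. RNA was measured by poly(A) sequencing in cultures grown from cortices at E14.5 at a passage number below 10, each library starting from 100 ng of RNA, and every library was labelled female. FVB_WT (6 libraries of 5 lines) and FVB_MD43 (5 libraries of 4 lines) were FVB/NJ cells with genotype Smchd1+/+ or Smchd1MommeD43/MommeD43, MommeD43 being a chemically induced missense allele of the chromatin repressor SMCHD1. C57BL/6J cells in which Smchd1 was fused to GFP formed B6GFP_WT, with 4 lines in 6 libraries, and, carrying the MommeD43 change made by genome editing, B6GFP_MD43, with 4 lines in 5 libraries. The methods described B6GFP_MD43 as homozygous for the edited fusion allele. The labels gave the B6GFP controls as Smchd1+/+, whereas the methods described them as homozygous for the fusion. Strain and fusion therefore changed together and cannot be told apart. Replicate numbers stand for cell lines as numbered in the labels, 5 of which were sequenced in a pair of batches. No source used here ties each line to an embryo of its own, so p-values do not measure the spread between embryos. Those of the group fits rest on the spread between libraries, with line as a random block at a consensus correlation of 0.0827. The labels give B6GFP_WT replicates 1 and 2 and B6GFP_MD43 replicate 4 line numbers with the same first part, likewise replicate 3 of B6GFP_WT and of B6GFP_MD43, and FVB_WT replicate 1 and FVB_MD43 replicate 4 differ by a letter. What a shared first part stands for is not given in the sources used here, and its part in the values was not tested.

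The batch 1 columns of FVB_MD43 replicate 3 and of B6GFP_MD43 replicate 2 matched, gene by gene and within 8e-09, the average of their group mates. These 2 of 24 columns were not used, and 22 libraries of 17 lines remained. Batch 1 held both strains, batch 2 only FVB and batch 3 only B6GFP. As a share of the deepest library, depth ranged from 0.435 to 1 for batch 3 and from 0.526 to 0.893 for batch 1 but only from 0.137 to 0.19 for batch 2, while absolute depth was unknown. The NSC markers Nes (9.63 to 10.80 log2 CPM) and Sox2 were listed at high levels in every library. Hes5 of the same list was at 2.70 to 5.48 in FVB and 0.96 to 2.45 in B6GFP. Of the 8 NSC markers 2 were higher and 5 lower in B6GFP in wild type (limma adjusted p under 0.05), and 2 and 4 in MommeD43. Over all genes these shares were 17.9% and 23.2% in wild type and 14.7% and 19.6% in MommeD43. B6GFP_WT replicate 4 and B6GFP_MD43 replicate 2 of batch 3 stood apart from their groups across the transcriptome, with 6.34% and 5.29% of the 12843 genes of mean log2 CPM of 0 or more lying over 1 log2 unit from the group mean, against 0.0311% to 2.22% in the other libraries. The spread and the correlations are given with and without B6GFP_WT replicate 4. In bulk RNA, fewer cells of a state and less RNA per cell cannot be told apart.

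In glycolysis, glucose enters through transporters of the GLUT family, is phosphorylated and split into trioses, and is converted to pyruvate with a gain of ATP. Lactate dehydrogenase then reduces pyruvate to lactate, which leaves through monocarboxylate transporters, whereas pyruvate dehydrogenase kinase keeps pyruvate out of the mitochondria. When oxygen falls, the prolyl hydroxylases that mark HIF1A for degradation slow down, and the stabilised factor pairs with ARNT and binds short elements with the core ACGTG or GCGTG to raise many glycolytic enzymes together with genes of angiogenesis, mitophagy and collagen modification. NSCs and other neural progenitors are known for high glycolysis, and HIF1A itself is controlled mainly at the protein level, so its RNA is a poor gauge of its activity.

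RefSeq promoter windows of 300 bases on GRCm38.p6 (250 bases before to 50 after a start) were found for 37 of the 40 members, 53 windows in all. Windows were missing for Slc2a3, Bnip3l and Ndrg1. The cores ACGTG and GCGTG were searched on both strands, the palindrome CACGTG counting once on each. ACGTG was found in 31 of the 53 member windows (58.5%), against 24.8% of the 14198 windows of the genes in the deposited table and 19.6% of all 32851 windows. GCGTG was found in 56.6% of the member windows and 49.7% of the windows of the deposited genes. Per gene, 27 of the 37 members held ACGTG in at least 1 window, against 28.9% of the 11104 deposited genes with a window. Several members are textbook HIF targets, windows of 1 gene can overlap, and a match is a description of the letters only. The windows below belong to Slc16a3, to 4 variable members that shared 4 of their 5 highest libraries with it, and to Eno2, a member that differed between strains and held neither core. The capitals mark ACGTG or GCGTG on either strand.
Slc16a3, chr11:120948817-120949116, plus strand: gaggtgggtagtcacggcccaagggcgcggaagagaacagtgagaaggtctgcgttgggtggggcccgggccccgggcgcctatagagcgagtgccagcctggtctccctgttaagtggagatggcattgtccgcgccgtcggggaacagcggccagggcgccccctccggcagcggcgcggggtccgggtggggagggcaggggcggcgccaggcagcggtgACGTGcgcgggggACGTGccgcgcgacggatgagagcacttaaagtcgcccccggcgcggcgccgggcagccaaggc
Pdk1, chr2:71872974-71873273, plus strand: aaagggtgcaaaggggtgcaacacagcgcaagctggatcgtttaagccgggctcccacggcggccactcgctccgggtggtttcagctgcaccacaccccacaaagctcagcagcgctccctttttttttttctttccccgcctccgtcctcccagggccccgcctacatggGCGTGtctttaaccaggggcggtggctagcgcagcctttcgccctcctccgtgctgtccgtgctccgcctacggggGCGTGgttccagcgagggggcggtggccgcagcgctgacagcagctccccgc
Bnip3, chr7:138909457-138909756, minus strand: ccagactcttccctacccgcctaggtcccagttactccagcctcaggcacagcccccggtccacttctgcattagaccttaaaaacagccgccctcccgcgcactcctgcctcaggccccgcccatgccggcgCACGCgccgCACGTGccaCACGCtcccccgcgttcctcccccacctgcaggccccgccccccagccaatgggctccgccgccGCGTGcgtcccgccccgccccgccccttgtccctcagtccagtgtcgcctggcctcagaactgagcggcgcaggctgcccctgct
Ankrd37, chr8:45999801-46000100, minus strand: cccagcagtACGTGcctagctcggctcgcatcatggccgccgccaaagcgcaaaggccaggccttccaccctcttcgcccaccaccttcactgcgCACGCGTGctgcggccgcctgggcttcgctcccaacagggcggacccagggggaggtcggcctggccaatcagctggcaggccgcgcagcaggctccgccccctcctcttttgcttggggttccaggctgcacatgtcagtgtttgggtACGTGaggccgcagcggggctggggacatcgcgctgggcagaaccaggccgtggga
P4ha2, chr11:54100674-54100973, plus strand: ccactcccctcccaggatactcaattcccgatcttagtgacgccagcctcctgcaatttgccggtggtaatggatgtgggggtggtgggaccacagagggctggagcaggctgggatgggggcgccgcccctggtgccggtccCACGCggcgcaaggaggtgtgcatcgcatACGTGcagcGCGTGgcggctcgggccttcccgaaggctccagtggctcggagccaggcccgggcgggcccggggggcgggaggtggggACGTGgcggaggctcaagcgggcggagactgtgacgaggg
Eno2, chr6:124769624-124769923, minus strand: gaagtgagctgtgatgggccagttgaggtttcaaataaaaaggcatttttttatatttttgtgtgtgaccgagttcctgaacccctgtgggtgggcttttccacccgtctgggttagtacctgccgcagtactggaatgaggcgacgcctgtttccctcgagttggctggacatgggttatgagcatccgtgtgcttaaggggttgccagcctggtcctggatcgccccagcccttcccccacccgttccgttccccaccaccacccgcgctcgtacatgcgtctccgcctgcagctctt
Slc16a3, P4ha2, Ankrd37 and Bnip3 each held 2 matches of ACGTG, the 2 of Bnip3 forming a single palindrome. Pdk1 held only GCGTG in the window shown. Tpi1, which shared as many of its highest libraries with Slc16a3, held neither core, and Pfkl held 1 GCGTG.

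The members varied more between lines of one group than most genes did. The within-group SD, taken over line means with the group means removed, had a median of 0.327 log2 units over the members against 0.192 over the 12843 genes of mean log2 CPM of 0 or more. It was above 0.5 in 15 of 40 members and in 9.33% of those genes. Without B6GFP_WT replicate 4 the medians were 0.261 and 0.164, with 11 of 40 members and 7.33% of genes above 0.5. Car9, at a mean of -2.03 log2 CPM, counts among the members above 0.5 in both settings but not among these genes. Members and genes were not matched for level. The spread was uneven over the pathway. The enzymes of the first glycolytic steps had a median SD of 0.227 and those of the later steps 0.160, while the transporters had a median of 0.523 and the 13 other hypoxia-response genes 0.683. Without B6GFP_WT replicate 4 these medians were 0.189, 0.155, 0.336 and 0.585. Pfkm, the muscle-type phosphofructokinase, had the smallest SD, 0.0801 (0.0759 without that line), and without that line the smallest was that of Hif1a, at 0.065 (0.134 with it).

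**Figure D1:**
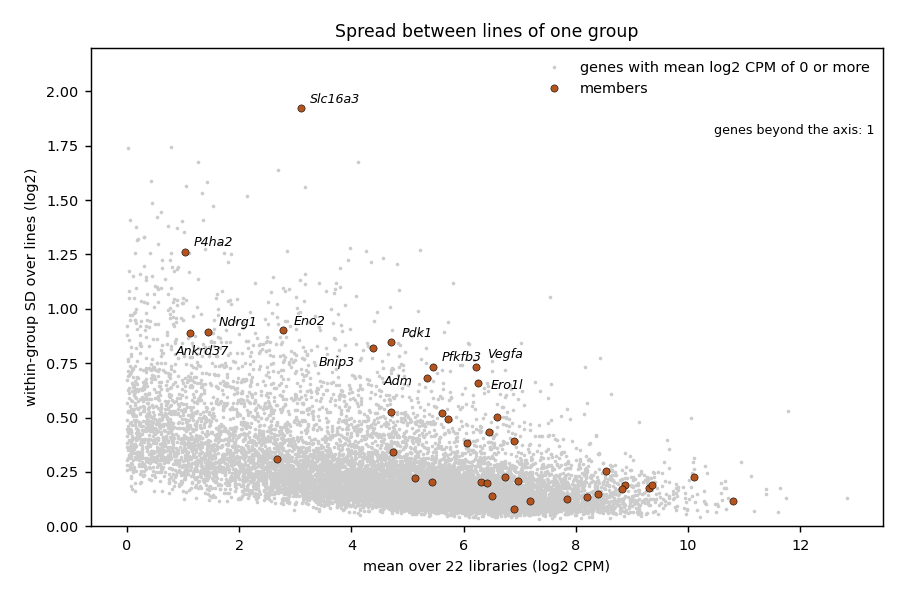
Within-group SD over lines (vertical axis, log2 units) against the mean over 22 libraries (horizontal axis, log2 CPM) for members (orange) and the genes with a symbol and a mean of 0 or more (grey), 1 gene lying beyond the axis. Slc16a3, at 1.92, ranked 3 among the 12843 genes with or without a symbol, and most enzymes of the glycolytic chain lie in the cloud of steady genes at the lower right.

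Slc16a3 encodes MCT4, the transporter by which highly glycolytic cells export lactate, and it had the largest spread of the 40 members. In FVB_WT its log2 CPM was 0.73 in replicate 1, 4.83 and 5.76 in the batch 1 and batch 2 libraries of replicate 2, 3.13 in replicate 3, 1.57 in replicate 4 and 0.93 in replicate 5. In FVB_MD43 it was 3.63 in replicate 1, 4.63 and 6.86 in the libraries of replicate 2, 0.70 in replicate 4 and 5.39 in replicate 5. In B6GFP_WT it was 5.67 in replicate 1, 3.35 and 3.67 in the libraries of replicate 2, 0.62 and 3.17 in those of replicate 3 and 2.32 in replicate 4. In B6GFP_MD43 it was 4.37 in replicate 1, 0.54 in replicate 2, -0.05 and 3.16 in the libraries of replicate 3 and 3.38 in replicate 4. All 4 groups overlapped, each holding libraries below 1 and above 4 log2 CPM, and the highest and lowest libraries were 119.8-fold apart. The low end lay near 1 CPM. FVB_WT replicate 5 and FVB_MD43 replicate 4 were of batch 2, the batch of lowest depth. The size of the fold and of the spread is therefore uncertain. Slc16a1, which encodes the lactate and pyruvate carrier MCT1, spanned only 6.41 to 7.25 log2 CPM over the same libraries.

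Pdk1, the kinase that shuts pyruvate out of the mitochondria, followed much the same order. Its log2 CPM in FVB_WT was 3.87, 5.23, 5.84, 4.68, 4.14 and 3.45, with the libraries in the order just given for Slc16a3. In FVB_MD43 it was 4.81, 5.51, 6.61, 3.66 and 5.64, and the value of 6.61, from replicate 2 of batch 2, was the highest of all 22. In B6GFP_WT it was 5.88, 4.58, 5.18, 3.60, 4.59 and 4.25, and in B6GFP_MD43 5.16, 3.75, 3.58, 4.52 and 4.92. Slc16a3 and Pdk1 shared 4 of their 5 highest and 4 of their 5 lowest libraries. Pfkl, the liver-type phosphofructokinase, and Tpi1, the triose isomerase, also shared 4 and 4 with Slc16a3. Bnip3, a mitophagy receptor, shared 4 of the highest and 3 of the lowest, as did Ankrd37, P4ha1, P4ha2, Egln3 and Pgam1. Slc16a3 was taken as the reference after its values were seen, all genes share the same libraries, and the counts are descriptive.

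Bnip3 spanned 12.3-fold between libraries. Its log2 CPM had a lowest, median and highest value of 3.43, 3.96 and 5.43 in FVB_WT and of 3.47, 4.65 and 5.58 in B6GFP_WT. The 5 FVB_MD43 libraries had 4.42, 5.17, 6.32, 3.64 and 4.97, and the 5 B6GFP_MD43 libraries 4.76, 2.70, 3.63, 3.87 and 4.59. Vegfa, the angiogenic growth factor, had a lowest, median and highest value of 5.35, 6.21 and 6.90 in FVB_WT and of 5.59, 6.45 and 7.38 in B6GFP_WT. Its values were 6.13, 6.60, 7.58, 5.23 and 6.76 in FVB_MD43 and 6.39, 4.90, 5.54, 5.48 and 6.77 in B6GFP_MD43. In both genes every group overlapped with every other. P4ha2, a subunit of the collagen prolyl hydroxylase, spanned 26.5-fold from -1.23 to 3.50 log2 CPM. Both ends lay in FVB_MD43 libraries of batch 2, the batch of lowest depth.

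**Figure D2:**
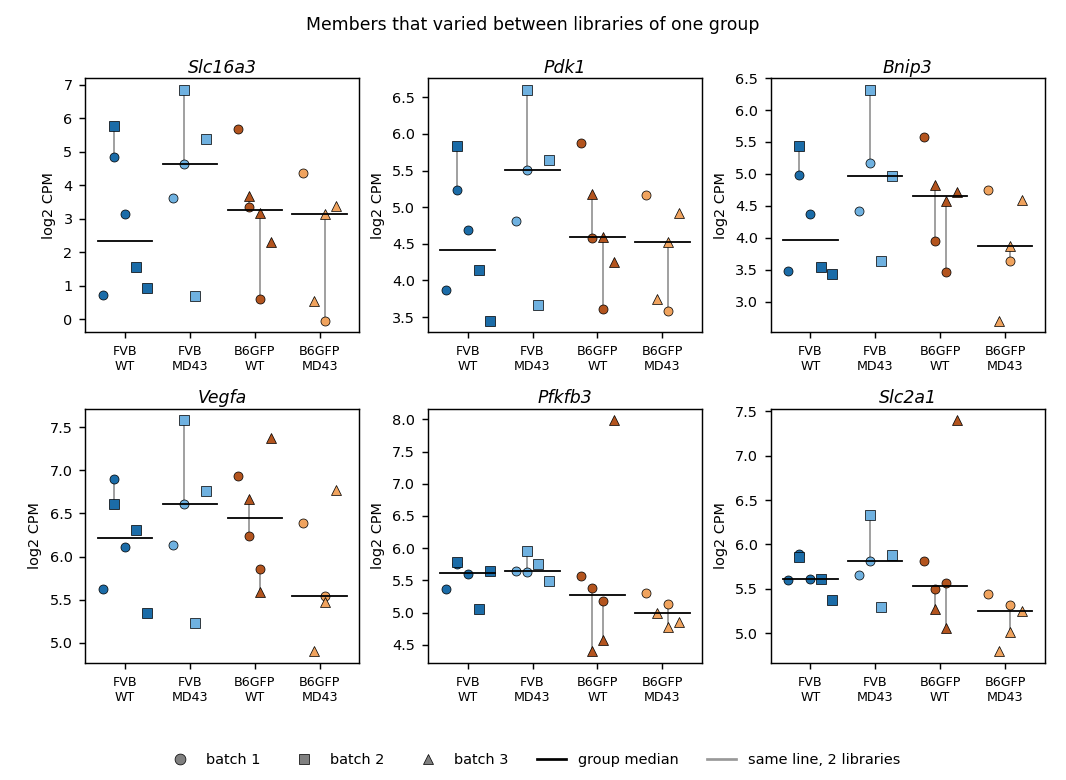
Log2 CPM of 6 members in each of 22 libraries, by group, with the shape giving the batch, the black bar the group median and a grey line joining libraries of the same line. Slc16a3, Pdk1, Bnip3 and Vegfa spread widely inside every group, whereas Pfkfb3 and Slc2a1 are set apart mainly in B6GFP_WT replicate 4, at 7.99 and 7.40. Between the libraries of FVB_MD43 replicate 2 the first 4 genes differ by 2.22, 1.10, 1.15 and 0.98. Other lines show smaller gaps in some genes, as in B6GFP_MD43 replicate 3 at 0.24 for Bnip3 and -0.06 for Vegfa.

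Libraries of the same line differed as well. The batch 2 library of FVB_MD43 replicate 2 was above its batch 1 library in 35 of 40 members, by a median of 0.32 log2 units, whereas the median size of the difference over expressed genes was 0.0997. The largest of these was Slc16a3, at 2.22. Slc16a3 was also the member that differed most between libraries of B6GFP_WT replicate 3 (2.55) and of B6GFP_MD43 replicate 3 (3.20), higher in batch 3 in both. In FVB_WT replicate 2 and B6GFP_WT replicate 2 no member differed by more than 1 log2 unit, and the median sizes of the difference over members, 0.122 and 0.198, were near those over expressed genes, 0.120 and 0.166. Repeats of a line also differed in batch and depth, whose part in these values was not tested.

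**Figure D3:**
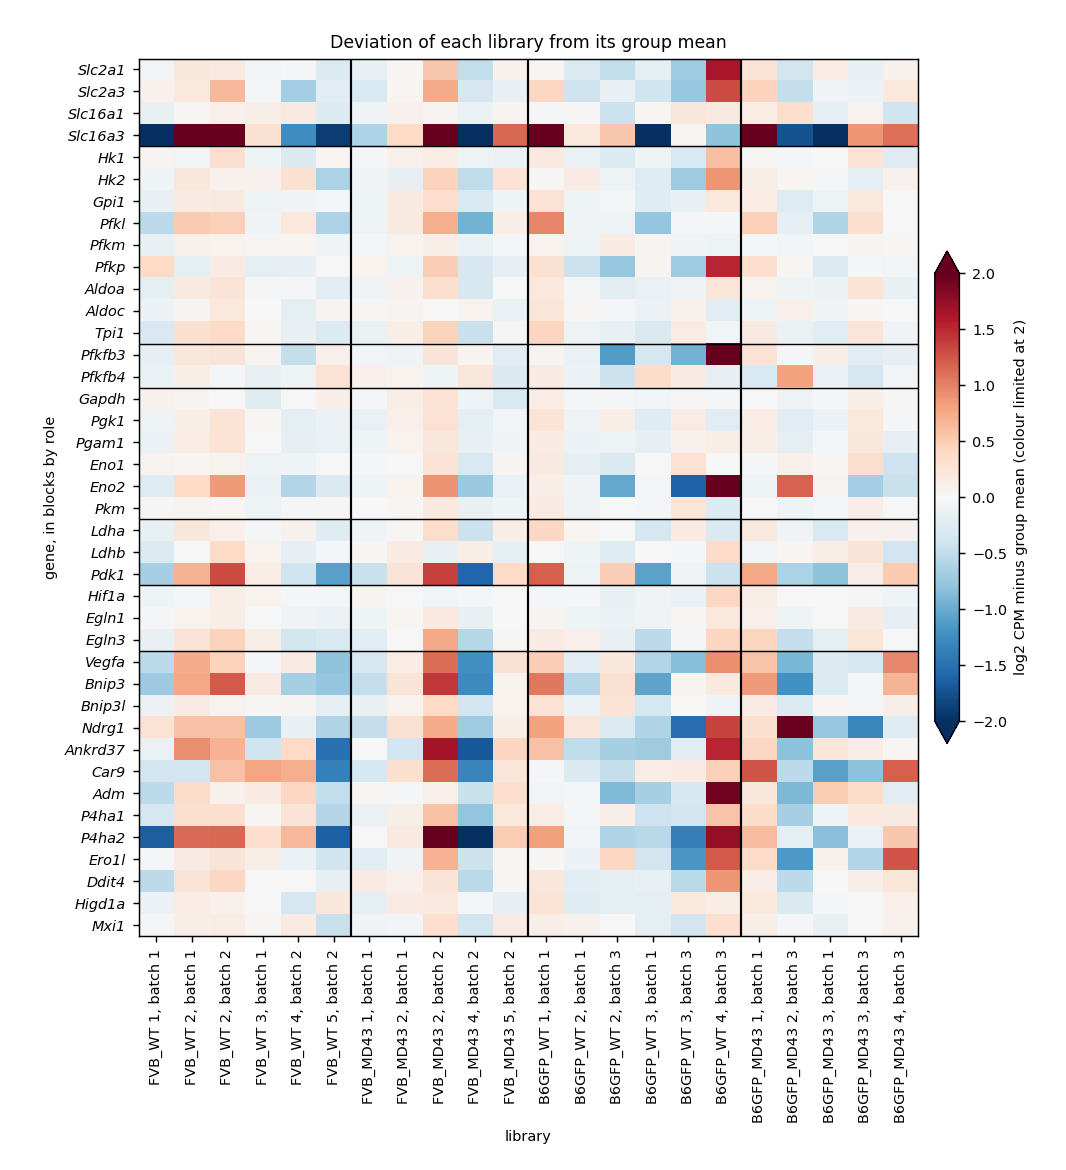
Log2 CPM of each member (rows, in blocks by role) in each library (columns) minus the mean of its group, from blue (lower) to red (higher), with the colour limited at 2. The batch 2 library of FVB_MD43 replicate 2 is red in nearly all rows, FVB_MD43 replicate 4 is blue in nearly all, and B6GFP_WT replicate 4 is red in a different set of rows, led by Pfkfb3, Eno2 and Adm.

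Single libraries held most of the extremes. FVB_MD43 replicate 2 of batch 2 was the highest of all 22 libraries for 15 members, among them Slc16a3, Pdk1, Bnip3, Vegfa, Pfkl, Tpi1 and Egln3. FVB_MD43 replicate 4 lay on the other side, with only 4 of 40 members above the group mean and a median deviation of -0.38, although over all expressed genes the median deviation was 0.0095. B6GFP_MD43 replicate 2 was the lowest library for 13 members, among them Vegfa (4.90), Bnip3 (2.70), Adm (4.09), Ero1l (4.94), Ddit4 (5.70) and Slc2a1 (4.80). In the same library the neuronal markers Tubb3, Dcx and Stmn2 were the highest of all 22, at 6.48, 5.20 and 2.97 log2 CPM against at most 3.85, 2.32 and -0.11 elsewhere, and the summed level of the 7 neuronal markers was 10.4 against 9.50 to 10.1. The endothelial markers Pecam1, Cdh5, Kdr and Cldn5 were also highest there, at 1.70, 0.65, 2.39 and 0.77 log2 CPM, and the summed level of the 5 endothelial markers was 3.62 against at most 2.24 elsewhere. The part of both lists in the low hypoxia-response values was not tested.

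B6GFP_WT replicate 4 was the highest library for 13 members, but not for the same ones. Pfkfb3, the bifunctional enzyme that makes the activator of phosphofructokinase, reached 7.99 log2 CPM there and 4.40 to 5.96 in the other 21 libraries. Slc2a1, the glucose transporter GLUT1, reached 7.40 against 4.80 to 6.33, Pfkp, the platelet-type phosphofructokinase, 7.66 against 5.10 to 6.44, and Adm, which encodes the vasoactive peptide adrenomedullin, 7.20 against 4.09 to 5.93. Slc16a3 and Pdk1 lay in the lower part of their range in this library, at 2.32 and 4.25. Atf3, a stress-induced transcription factor, stood at 7.17 log2 CPM against -1.02 to 3.07 elsewhere. Acta2, a marker of contractile mesenchyme, was at 4.73, close to the 4.55 of the batch 2 library of FVB_WT replicate 2, while the other 5 mesenchymal markers were below 1 CPM there, from -5.25 for Dcn to -1.15 for Col1a2 and Col3a1. The part of these in the member values was not tested.

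Ero1l, an oxidase of the endoplasmic reticulum, was high in another pair of libraries as well. It was at 7.01 log2 CPM in the batch 3 library of B6GFP_WT replicate 2 and 7.34 in B6GFP_MD43 replicate 4, and apart from B6GFP_WT replicate 4 (7.82) it did not exceed 6.95 elsewhere. Vegfa was at 6.67 and 6.77 in this pair, positions 7 and 5 among the libraries. Asns and Trib3 of the integrated stress response, which the cell mounts through ATF4 on amino acid shortage or protein misfolding, were highest in this pair. Asns was at 8.52 and 8.59 against at most 7.24 elsewhere, and Trib3 at 3.55 and 4.24 against at most 2.06. The summed level of the 13 genes of that list was 11.99 and 12.12 against 10.52 to 11.22 in the other libraries. It was 11.06 in B6GFP_WT replicate 4, the library with the highest Ero1l. The part of this list in the Ero1l and Vegfa values was not tested.

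Correlations over the 17 lines, with group means removed, were computed for 6 pairs of members (two-sided permutation within groups, adjusted over the 6 pairs). The 2 farthest lines left out were those farthest from the median of the gene named first in the pair. Lines extreme only in the other gene were kept. Pgk1 with Ldha, which encode phosphoglycerate kinase and the lactate-producing dehydrogenase subunit, gave Pearson's r = 0.774 (adjusted permutation p = 0.016) and Spearman's rho = 0.716 (adjusted permutation p = 0.0194), and r = 0.651 without the 2 lines farthest from the median. Bnip3 with Ankrd37 gave r = 0.692 (adjusted permutation p = 0.016), rho = 0.718 (adjusted permutation p = 0.0194) and r = 0.608 without the 2 farthest lines. Vegfa with Adm gave r = 0.632 (adjusted permutation p = 0.0202) and rho = 0.571 (adjusted permutation p = 0.051), and r = 0.556 without the 2 farthest lines. Slc2a1 with Pdk1 gave r = 0.268 (adjusted permutation p = 0.373) and rho = 0.549 (adjusted permutation p = 0.051), r = 0.645 without the 2 farthest lines, and r = 0.934 (adjusted permutation p = 0.00018) without B6GFP_WT replicate 4 alone, so this value was set by 1 line. Within strains it was 0.956 over 9 FVB lines and -0.02 over 8 B6GFP lines. Tpi1 with Eno1 (r = 0.457, rho = 0.336) and Hif1a with Vegfa (r = 0.384, rho = 0.201) did not pass, with adjusted permutation p = 0.0947 and 0.212 for r and 0.234 and 0.449 for rho, and r = 0.41 and 0.165 without the 2 farthest lines.

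The comparison of MommeD43 with wild type asked whether the altered SMCHD1 changes these genes. No member passed in either strain. Of the 40, 0 passed in FVB at a limma adjusted p under 0.05, where 0.0737% of all genes passed. An unadjusted p under 0.05 was found for 3 members there and for 1024 of all 14922 genes. In B6GFP 0 members passed and 0 had an unadjusted p under 0.05, where 0% of all genes passed and 319 had an unadjusted p under 0.05. Averaged over strains 0 passed and 0 had an unadjusted p under 0.05, against 0.0335% of all genes. In FVB the smallest p was that of Pfkp, whose log2 CPM had a lowest, median and highest value of 5.10, 5.21 and 5.69 in FVB_WT and was 5.76, 5.60, 6.17, 5.36 and 5.52 in FVB_MD43, so that the groups overlapped. The fitted change was 0.51 (SE 0.152, limma adjusted p = 0.31). Pfkp passed only without FVB_MD43 replicate 2 (0.55, limma adjusted p = 0.0174) or with all 24 columns (0.53, limma adjusted p = 0.00936). Under these settings 6.54% and 3.42% of all genes passed. Gapdh (0.17, SE 0.0755, limma adjusted p = 0.657) and Pkm (0.12, SE 0.056, limma adjusted p = 0.72) came next.

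In B6GFP the smallest p-values were those of Gapdh at -0.16 (SE 0.0982), Slc2a1 at -0.24 (SE 0.163) and Car9, a membrane carbonic anhydrase induced by hypoxia, at -0.67 (SE 0.49), each with limma adjusted p = 1. Car9 passed without B6GFP_MD43 replicate 1 (-2.04, limma adjusted p = 0.0299), where 0.717% of all genes passed. With all 24 columns Slc2a1 (-0.46) and Car9 (-1.13) passed, where 3.22% of all genes passed. Averaged over strains they were Pfkp at 0.21 (SE 0.125), Aldoc at 0.07 (SE 0.0458) and Hk2, an inducible hexokinase, at -0.15 (SE 0.0998), each with limma adjusted p = 0.999. Fitted changes were above 0 for 32 of 40 members in FVB (median 0.085) and for 8 of 40 in B6GFP (median -0.12), while the medians over all genes were 0.013 and 0.011. These directions turned with single lines: in FVB 9 of 40 were above 0 without FVB_MD43 replicate 2 (median -0.091), and in B6GFP 23 of 40 without B6GFP_WT replicate 1 (median 0.017) and 20 of 40 without B6GFP_MD43 replicate 3 (median 0.0013). With the replicate number as a block 21 of 40 were above 0 in FVB (median 0.0036). The direct test of the difference between strains called 0 members and 0% of all genes, and 2 members had an unadjusted p under 0.05, Gapdh at -0.33 (SE 0.124) and Pfkp at -0.61 (SE 0.25), each with limma adjusted p = 1. Pgam1, the phosphoglycerate mutase, followed at -0.23 (SE 0.121). The variable members had standard errors that allowed sizeable changes in either direction, as in Slc16a3 (0.996, SE 0.907 in FVB and -0.71, SE 1.18 in B6GFP), Pdk1 (0.59, SE 0.394 and -0.26, SE 0.513), Bnip3 (0.55, SE 0.392 and -0.21, SE 0.509) and Vegfa (0.12, SE 0.285 and -0.32, SE 0.37). The steady ones were measured tightly, as in Hif1a (-0.05, SE 0.0385 and 0.06, SE 0.0501), Pgk1 (0.08, SE 0.0896 and -0.12, SE 0.117) and Ldha (0.08, SE 0.116 and -0.15, SE 0.15).

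**Figure D4:**
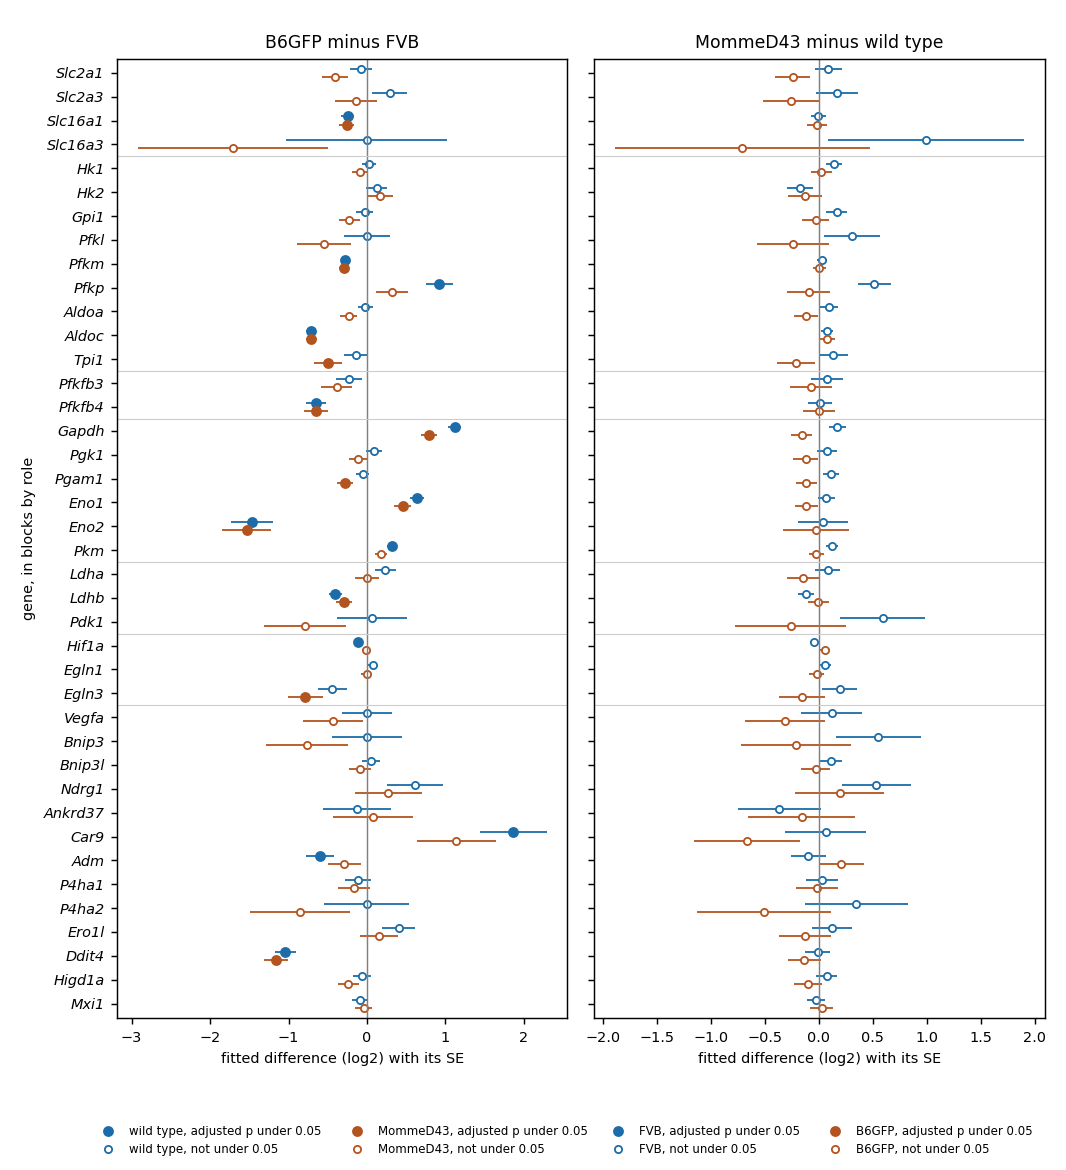
Fitted log2 differences (points) with their SE (bars) for the 40 members, B6GFP minus FVB within each genotype at the left and MommeD43 minus wild type within each strain at the right, filled where the limma adjusted p was under 0.05. Filled points occur only at the left, and Gapdh, Eno1, Aldoc, Eno2, Pfkm, Pfkfb4, Ddit4, Ldhb and Slc16a1 are filled in both genotypes.

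Between the strains, single enzymes of the chain differed in opposite directions. In wild type 14 of 40 members passed, 5 higher and 9 lower in B6GFP, where 41.1% of all genes passed (17.9% higher and 23.2% lower). In MommeD43 12 passed, 2 higher and 10 lower, where 34.4% of all genes passed (14.7% higher and 19.6% lower). The median fitted difference over the members was -0.015 in wild type and -0.24 in MommeD43, against -0.021 and -0.028 over all genes, and in wild type its direction turned, to 0.113 without array quality weights, 0.119 on line means, 0.122 without FVB_WT replicate 2 and 0.0085 with the replicate block. After median centring of the libraries the split of all called genes turned from 2676 higher and 3455 lower to 3608 higher and 2544 lower in wild type and from 2199 and 2927 to 3013 and 2265 in MommeD43, and that of the members became 5 and 7 in wild type and 3 and 6 in MommeD43. Without array quality weights 4 members passed in wild type (Gapdh, Eno1, Aldoc and Car9), where 8.44% of all genes passed, and 3 in MommeD43 (Gapdh, Aldoc and Ddit4), where 6.82% passed, so every other strain call below was lost under that setting. In MommeD43 the count rose to 22 without B6GFP_MD43 replicate 1 (42.1% of all genes) and to 19 without B6GFP_MD43 replicate 3 (54.8%). Batch 2 and batch 3 each held 1 strain, so only batch 1 gives a within-batch value, and there 14 members passed in wild type and 8 in MommeD43, against 34.1% and 24.1% of all genes.

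Gapdh and Eno1, both of the later glycolytic steps, were higher in B6GFP. Gapdh, the triose phosphate dehydrogenase, had a lowest, median and highest log2 CPM of 5.73, 6.01 and 6.10 in FVB_WT and of 6.99, 7.01 and 7.20 in B6GFP_WT. It was 6.04, 6.20, 6.34, 5.96 and 5.74 in the FVB_MD43 libraries and 6.91, 6.81, 6.86, 7.03 and 6.93 in those of B6GFP_MD43. All 11 B6GFP libraries lay above all 11 FVB libraries, a separation in either direction that 5.14% of all genes showed. The fitted difference was 1.12 (SE 0.0856, limma adjusted p = 2.02e-09) in wild type and 0.79 (SE 0.101, limma adjusted p = 4.59e-06) in MommeD43, and 1.17 and 0.77 in batch 1 alone. Eno1, the common enolase, ranged from 8.96 to 9.13 with median 9.08 in FVB_WT and from 9.40 to 9.97 with median 9.68 in B6GFP_WT, and was 9.08, 9.11, 9.36, 8.78 and 9.14 in FVB_MD43 and 9.54, 9.67, 9.61, 9.91 and 9.16 in B6GFP_MD43. Its fitted difference was 0.64 (SE 0.0908, limma adjusted p = 1.12e-05) and 0.46 (SE 0.107, limma adjusted p = 0.00238). The mouse genome holds many processed copies of Gapdh and several of Eno1, Pgk1, Aldoa, Ldha, Tpi1, Pgam1 and Pkm, so reads can be split or lost between near-identical sequences, and how the counting treated them is not given in the sources used here. Levels of these genes are therefore uncertain. Reads of both strains were aligned to the same build, GRCm38.p6, so the strain differences of these genes carry this uncertainty too. Whether reads of FVB and B6GFP cells aligned to it equally well is not given, for these genes or for any other. The part of such copies and of alignment in the strain differences was not tested.

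Aldoc and Eno2, the aldolase and enolase isoforms typical of astrocytes and neurons, were lower in B6GFP. Aldoc had a lowest, median and highest log2 CPM of 7.97, 8.19 and 8.38 in FVB_WT and of 7.22, 7.42 and 7.66 in B6GFP_WT, and was 8.25, 8.27, 8.21, 8.29 and 8.09 in FVB_MD43 and 7.52, 7.70, 7.53, 7.63 and 7.60 in B6GFP_MD43. The strains did not overlap, and the fitted difference was -0.71 in both genotypes (SE 0.0633 and limma adjusted p = 2.01e-08 in wild type, SE 0.0745 and limma adjusted p = 3.32e-07 in MommeD43). Eno2 ranged from 2.89 to 4.32 with median 3.29 in FVB_WT and from 0.49 to 4.71 with median 2.06 in B6GFP_WT, and was 3.43, 3.59, 4.43, 2.77 and 3.39 in FVB_MD43 and 1.89, 3.17, 2.04, 1.30 and 1.54 in B6GFP_MD43. The value of 4.71 was that of B6GFP_WT replicate 4, and the next highest library of its group was at 2.24. The fitted difference was -1.47 (SE 0.267, limma adjusted p = 0.000171) and -1.53 (SE 0.314, limma adjusted p = 0.000753), and without array quality weights it was -1.02 and -1.25. All 6 astrocyte markers, of which Aldoc is 1, were lower in B6GFP in both genotypes, with a median of -1.61 in wild type and -1.79 in MommeD43, and their summed level was 8.83 to 9.33 in FVB_WT, 8.98 to 9.22 in FVB_MD43, 8.06 to 8.41 in B6GFP_WT and 8.27 to 8.50 in B6GFP_MD43. Gfap, the defining marker, was below 1 CPM in most libraries. Of the 7 neuronal markers 1 was higher and 2 lower in B6GFP in wild type (17.9% and 23.2% of all genes). In MommeD43 2 were higher and 1 lower (14.7% and 19.6%). Their summed level was 9.50 to 9.86 in FVB_WT, 9.68 to 9.90 in FVB_MD43, 9.81 to 9.98 in B6GFP_WT and 9.88 to 10.39 in B6GFP_MD43. The part of the astrocyte markers in the Aldoc difference and of the neuronal markers in the Eno2 difference was not tested.

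**Figure D5:**
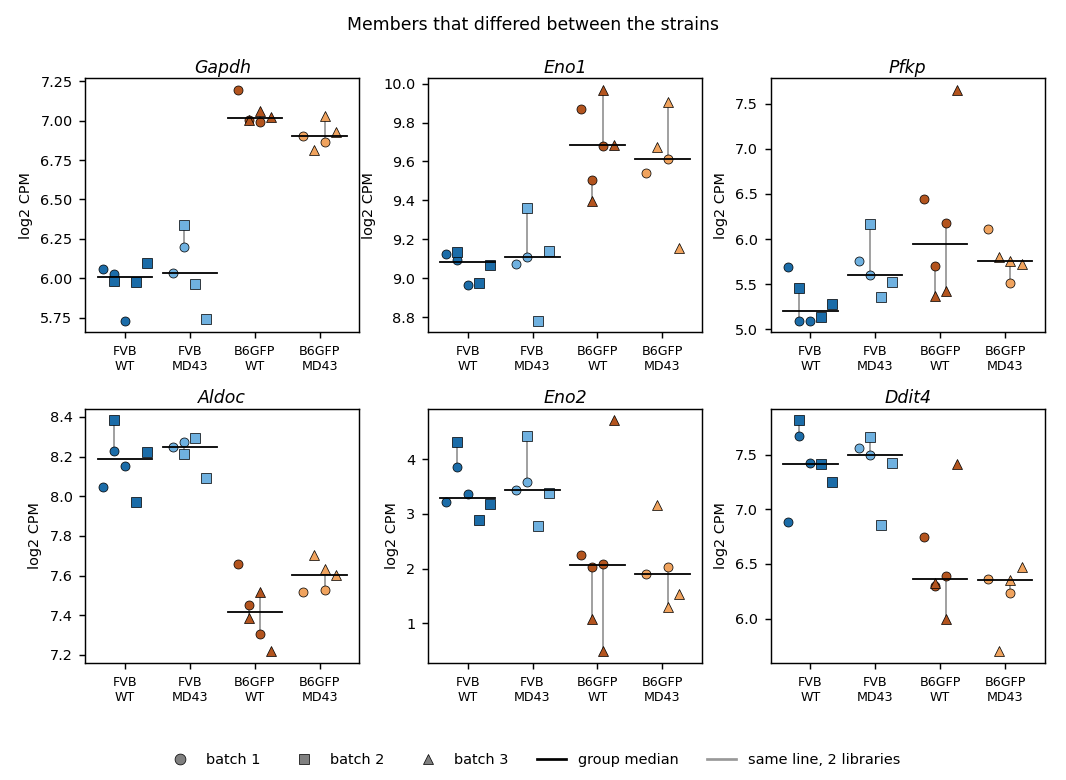
Log2 CPM of 6 members in each of 22 libraries, by group, with symbols as in the plot of the variable members. Gapdh and Aldoc separate all FVB from all B6GFP libraries in opposite directions, while Eno1, Pfkp, Eno2 and Ddit4 differ with overlap, B6GFP_WT replicate 4 lying outside its group in Pfkp, Eno2 and Ddit4.

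The phosphofructokinase isoforms, which catalyse the committed step, were divided. Pfkp had a lowest, median and highest log2 CPM of 5.37, 5.94 and 7.66 in B6GFP_WT, against 5.10, 5.21 and 5.69 in FVB_WT, and the fitted difference was 0.92 (SE 0.173, limma adjusted p = 0.00024). In MommeD43 it was 0.31 and did not pass, the B6GFP_MD43 libraries being at 6.11, 5.80, 5.51, 5.75 and 5.72. Pfkm ranged from 6.84 to 7.09 with median 7.03 in FVB_WT and from 6.65 to 6.92 with median 6.75 in B6GFP_WT. Its fitted difference was -0.28 (SE 0.0515, limma adjusted p = 0.000203) in wild type and -0.30 (SE 0.0606, limma adjusted p = 0.000689) in MommeD43. Pfkl did not pass in either genotype. Pfkfb4, which tunes phosphofructokinase through fructose bisphosphate, had a median log2 CPM of 2.90 in FVB_WT and 2.32 in B6GFP_WT and a fitted difference of -0.65 (SE 0.129, limma adjusted p = 0.000424), and of -0.66 (SE 0.152, limma adjusted p = 0.00217) in MommeD43.

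Among hypoxia-response genes, Ddit4, the mTORC1 inhibitor REDD1, was lower in B6GFP. It had a lowest, median and highest log2 CPM of 6.88, 7.42 and 7.82 in FVB_WT and of 5.99, 6.36 and 7.42 in B6GFP_WT, and was 7.56, 7.50, 7.66, 6.86 and 7.43 in FVB_MD43 and 6.36, 5.70, 6.24, 6.36 and 6.48 in B6GFP_MD43. Only B6GFP_WT replicate 4 reached into the FVB range. The fitted difference was -1.04 (SE 0.13, limma adjusted p = 2.24e-06) in wild type and -1.16 (SE 0.153, limma adjusted p = 6.53e-06) in MommeD43, and without array quality weights it was -0.78 (adjusted p = 0.0684) and -1.14 (adjusted p = 0.0184). Egln3, a hydroxylase that is itself a HIF target, was at 4.99, 5.22, 5.96, 4.65 and 5.24 in FVB_MD43 and 4.66, 3.75, 4.06, 4.48 and 4.23 in B6GFP_MD43, a fitted difference of -0.79 (SE 0.22, limma adjusted p = 0.00864) that was -0.44 (SE 0.187, limma adjusted p = 0.066) in wild type. Hif1a, the oxygen-regulated subunit, stayed between 8.04 and 8.60 in all libraries, with medians of 8.23 in FVB_WT, 8.21 in FVB_MD43, 8.13 in B6GFP_WT and 8.12 in B6GFP_MD43. Its strain difference was -0.12 (SE 0.0437, limma adjusted p = 0.0393) in wild type, -0.05 (adjusted p = 0.387) after median centring of the libraries, and -0.01 in MommeD43. Car9 passed in wild type at 1.87 (SE 0.427, limma adjusted p = 0.00153), with a median of -2.62 in FVB_WT and -0.68 in B6GFP_WT, but it was below 1 CPM in every library and libraries of a batch shared identical low values, so its difference rests on few reads. Vegfa (0.00, SE 0.323), Bnip3 (-0.00, SE 0.444), Pdk1 (0.07, SE 0.447), Slc2a1 (-0.08, SE 0.142), Hk2 (0.12, SE 0.138), Pgk1 (0.08, SE 0.102) and Ldha (0.23, SE 0.131) did not pass in wild type. In MommeD43 the same 7 genes did not pass either, with limma adjusted p from 0.0648 for Slc2a1 to 0.994 for Ldha.

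Among the other members that passed, Pkm, pyruvate kinase, was 0.32 higher in B6GFP in wild type, and Adm differed by -0.60. Ldhb, the dehydrogenase subunit that favours pyruvate, differed by -0.40 in wild type and -0.29 in MommeD43, and Slc16a1 by -0.25 and -0.26. Tpi1 at -0.49 and Pgam1 at -0.28 passed in MommeD43 but not in wild type, although the test of the difference between the genotypes gave -0.35 (SE 0.22) and -0.23 (SE 0.121), each with limma adjusted p = 1. Slc2a3, Slc16a3, Hk1, Gpi1, Pfkl, Aldoa, Pfkfb3, Egln1, Bnip3l, Ndrg1, Ankrd37, P4ha1, P4ha2, Ero1l, Higd1a and Mxi1 passed in neither genotype.

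Relative to exon length, the isoforms of a step were far apart. Over the 4 groups the mean level per kilobase of exon was 9.41 log2 CPM per kb for Pkm, 9.18 for Ldha and 5.91 for Ldhb, 7.93 for Aldoa and 6.27 for Aldoc, and 7.99 for Eno1 and 1.33 for Eno2. The phosphofructokinases followed in the order Pfkm (5.30), Pfkl (4.68) and Pfkp (3.67). Gapdh stood at 5.90, below its neighbours in the chain Tpi1 (7.70) and Pgk1 (7.92), with the reservation on copies given above. Eno2 was at 1.86 log2 CPM per kb in FVB_WT and 0.97 in B6GFP_WT, so the order of Eno1 and Eno2 was the same in both strains.

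Other genes of the same pathways were examined as lists. Of 27 further genes of glycolysis and its branches in the table, none passed in any MommeD43 comparison. In the strain comparison, where 17.9% of all genes were higher and 23.2% lower in wild type and 14.7% and 19.6% in MommeD43, 4 were higher and 9 lower in B6GFP in wild type, and 5 higher and 12 lower in MommeD43. The pentose phosphate enzymes G6pdx (0.29 and 0.27), Pgd (0.36 and 0.29) and Tkt (0.41 and 0.32) were higher in B6GFP in wild type and MommeD43, as was the transporter Slc2a10 (0.70 and 0.65). Pgls and Taldo1 of the same pathway went the other way. Pgls averaged 4.33 log2 CPM in FVB_WT, 4.38 in FVB_MD43, 4.14 in B6GFP_WT and 4.15 in B6GFP_MD43, and passed in MommeD43 only. Taldo1 averaged 7.19, 7.23, 7.06 and 7.06 in the same order and passed in neither. The kinases Pdk2 (-0.73 and -0.76) and Pdk4 (-1.38 and -1.48), paralogs of Pdk1, were lower. Of 28 further hypoxia-response genes 2 were higher and 8 lower in wild type and 1 higher and 6 lower in MommeD43, with medians of -0.085 and -0.19. Epas1, the sister of HIF1A (-0.52 and -0.81), and Bhlhe40, a HIF-induced repressor (-1.11 and -1.23), were lower in both. Of 10 proliferation genes 7 were higher in B6GFP in wild type and 3 in MommeD43, with medians of 0.15 and 0.15. Of 13 genes of the integrated stress response 4 were higher and 1 lower in wild type, and 1 higher and 1 lower in MommeD43. The part of these lists in the member differences was not tested.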

How the data were processed

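RNA of 24 NSC libraries was sequenced. According to the submitters' processing notes, reads were trimmed with Trim Galore 0.4.4 and aligned with HISAT2 2.0.5 to GRCm38.p6, and limma 3.40.6 was used. The counting step is not given in the sources used here. The deposited values are log2 CPM from which the authors had removed the batch effect, the batch coefficients given the groups being 0 to within 7e-09 over the 24 columns. Of the 14922 rows, 247 had no symbol. Read counts were not recovered, and relative depth was taken from the spacing of the lowest values. The 2 columns equal to the mean of their group mates were left out.

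Groups were fitted in limma 3.58.1 (R 4.3.3) on all genes and 22 libraries, with batch as a covariate, line as a random block (consensus correlation 0.0827), array quality weights (0.101 to 4.9) and a mean-variance trend. P-values were two-sided and Benjamini-Hochberg adjusted over all genes, with a threshold of 0.05. The comparisons with a strain share their groups with those between genotypes. The fit was tested on simulated data. Descriptive values and the permutation tests (100000 draws within groups) used Python 3.11.15, numpy 2.4.6, scipy 1.17.1 and pandas 2.3.3. Promoter windows came from RefSeq, matched by gene identifier. Exon lengths came from the GENCODE annotation of that build.

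The members and lists were chosen with earlier results of these data known. Genes named in full were those past the threshold in a MommeD43 comparison or the 3 smallest p-values where none passed, the 8 smallest p-values in each strain comparison, and Hif1a, Slc2a1, Hk2, Pdk1, Pgk1, Ldha, Vegfa, Bnip3 and Car9. Slc16a3, P4ha2, Pfkfb3, Adm and Ero1l were added after their values were seen. Alternatives were no weights, all 24 columns, a filter on low values (1 CPM in at least 4 libraries), log2(CPM + 1), median centring, line means, no trend, a replicate block, single batches and leaving out each line. Leaving out B6GFP_WT replicate 4 from the spread and the correlations was chosen after seeing the data.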

Additional observations from a re-analysis of the deposited data

Results flagged for a closer look

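Of 160 sets of line means (40 members in 4 groups of 4 or 5 lines), 3 held a line set apart from the rest by Dixon's criterion, where chance gives about 8 (1 in 20). Tpi1 was at 8.94 log2 CPM in B6GFP_WT replicate 1, against 8.39 to 8.45 in the other lines of that group. Gapdh was at 7.20 in the same line, against 7.01 to 7.03. Hif1a was at 8.60 in B6GFP_WT replicate 4, against 8.08 to 8.14, and that line stood apart across the transcriptome.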

How the results depend on the processing

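Of 2070 alternative values for single named genes, 1888 kept their direction and side of the threshold, 29 came to pass, 21 no longer passed and 132 changed direction with neither value past the threshold. Using all 24 columns, members called numbered 1 in FVB (3.42% of all genes), 2 in B6GFP (3.22%) and 1 for the strain difference (0.409%). For the strains in MommeD43 they numbered 38 (93.8%), the added columns being copies of group means with no spread of their own. Without array quality weights 4 members passed between strains in wild type (8.44% of all genes) and 3 in MommeD43 (6.82%). The cause was not tested. Leaving out single lines gave 0 to 1 in FVB, 0 to 1 in B6GFP and 0 to 0 for the average and for the strain difference. Between strains 12 to 15 passed in wild type and 9 to 22 in MommeD43 (22 without B6GFP_MD43 replicate 1 and 19 without B6GFP_MD43 replicate 3). Over these fits 0.0201% to 6.54% of all genes passed in FVB, 0% to 0.932% in B6GFP and 0.0134% to 0.61% for the average. The share was 0% to 0.0804% for the strain difference. Between strains it was 26.9% to 42.9% in wild type and 31.1% to 54.8% in MommeD43. The correlation of Slc2a1 with Pdk1 was 0.645 without the 2 farthest lines and 0.934 without B6GFP_WT replicate 4, and that of Hif1a with Vegfa 0.165 without the 2 farthest lines. Same-numbered lines correlated between -0.484 and 0.138 in their deviations from the group mean. Lines of different numbers were not compared, so these values cannot decide whether the numbers mark pairs. With a replicate block 17 members passed between strains in wild type (46.0% of all genes) and 11 in MommeD43 (32.6%). In each MommeD43 comparison 0 members passed, where 0.918% of all genes passed in FVB, 0.0201% in B6GFP and 0.261% for the average. Depth was lowest in batch 2 and limits members near 1 CPM, such as Car9 and, in its lowest libraries, Slc16a3.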
